A study of Mus musculus with 12 samples.

Results

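Vector control cells were followed from 18 h to 42 h after transduction, in cells that had received no GATA1. The comparison took the 6 arrays whose titles name a vector control, 3 at 18 h and 3 at 42 h, out of 12 arrays in the series. They were chosen by their titles and not by any measured value. All 12 arrays hold RNA of G1ME cells, a mouse line of megakaryocyte-erythroid progenitors that the labels call Gata1-negative. Control cells carried the MIGR1 retroviral vector, which expresses green fluorescent protein (GFP), and the other 6 arrays hold cells carrying the same vector with GATA1, sorted at the same times. In every group flow cytometry picked the cells that were positive for GFP, and no untransduced cells enter the comparison. The labels describe biological triplicates and letter them A, B and C in each group, but name no culture or day for a letter. G1ME is 1 cell line, so the p-values measure the spread between these samples of the line and not between animals.

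GATA1 is the zinc finger factor that drives the erythroid and megakaryocytic programmes, and progenitors that lack it keep dividing without completing either. The factor p53 answers DNA damage and other stress by raising genes that stop the cell cycle, promote cell death or feed back on p53 itself. Enzymes of sterol synthesis rise and fall together under the control of SREBP2, which senses the cholesterol content of the cell.

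Each array gave a linear fluorescence intensity for 45101 probe sets, and 1 probe set per gene, the brightest on average, stood for the gene. Of 18193 named genes, 10759 were tested, those brighter than the median of their array in 3 or more of the 12 samples. The medians of the 6 vector arrays lay between 8.12 and 8.29, and between 29.3% and 29.7% of their probe sets exceeded 100. The log2 ratio of 3' to 5' actin signal, a sign of RNA breakdown, lay between 0.38 and 0.55 on the vector arrays, and their log2 signal for 18S RNA ran from 5.53 to 10.6. The GATA1 array at 42 h of letter A stood apart, with the highest of the 12 values for actin (0.80), for the same ratio of GAPDH (-0.11) and for 18S RNA (12.4). It enters the estimate of spread and all GATA1 values. Array intensities differ between probe sets for reasons of sequence, so levels of different genes were not set against each other. The samples are bulk RNA, in which fewer cells expressing a gene and less RNA per cell cannot be told apart.

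Few genes passed the test between 18 h and 42 h, and almost all of those that passed were lower at the later time. Of the 10759 genes tested, 41 (0.381%) passed an adjusted p of 0.05 in limma with the replicate letter as a block. Of these 37 (0.344%) fell and 4 (0.0372%) rose. In the same fit 754 genes were lower and 424 higher at an unadjusted p under 0.05. A gene that did not pass is therefore not shown to be unchanged. Changes are given as log2(intensity + 16) at 42 h minus 18 h, a scale that understates the change of dim genes, with the standard error of the fit after ± (3 arrays at each time). The changes of the 41 genes had a median size of 0.64 and ran from 0.30 to 1.84, against a median size of 0.071 over all genes tested. Of the 41 genes only 5 fell at least 2-fold on this scale and 0 rose as much. For all 41 genes the 3 letters went the same way, and for 34 of them the 18 h and 42 h arrays did not overlap. Over all genes tested the groups did not overlap in 7.18%, with 42 h lower, and in 3.1%, with 42 h higher. The 41 genes were chosen by a test on these same arrays with the letter as a block. Their shared direction and separation largely follow from that choice and are a description.

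These calls rest on the pairing of arrays by letter. Without the letter as a block 2 genes (0.0186%) passed, Mpp1 and Trp53inp2, both of which were among the 41, and 37 of the 41 had an unadjusted p under 0.05. No gene passed without the 42 h array of letter A (1012 with an unadjusted p under 0.05), without all arrays of letter A (1087), or in a fit of the 6 vector arrays alone (1099). Without 1 of the other vector arrays 3 (18 h A), 10 (18 h B), 8 (18 h C), 2 (42 h B) or 43 (42 h C) passed. The GATA1 arrays enter the estimate of spread, and leaving out 1 of those at 18 h left 14 (A), 11 (B) or 14 (C) genes, and at 42 h 31 (A), 26 (B) or 54 (C). The main genes are given with their value on every array, in the order of letters A, B and C.

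The largest fall was in Matn1, which encodes matrilin 1, a protein of the extracellular matrix. Its intensity was 135, 135 and 243 at 18 h and 31.9, 49.99 and 25.02 at 42 h, so every 42 h array lay below every 18 h array. The fitted change was -1.84 ± 0.25 (adjusted p = 0.0341). Cd24a encodes a small glycosylphosphatidylinositol-anchored surface protein used to stage blood cells. It read 820.04, 155 and 129 at 18 h and 326, 47.98 and 21.6 at 42 h, a change of -1.55 ± 0.22 (adjusted p = 0.0374). The letters differed more than the times here: the letter A array at 42 h was brighter than letters B and C at 18 h, so the groups overlapped although each letter fell. Its second probe set changed by -1.49 (adjusted p = 0.0406). Mt2, a metallothionein that binds zinc and copper, read 1025, 2207 and 633 at 18 h and 469, 487 and 245 at 42 h. The means were 1288 ± 819 at 18 h and 400.2 ± 134 at 42 h (SD, n = 3 each), and the change was -1.52 ± 0.22 (adjusted p = 0.0441).

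Cttn, the actin-binding protein cortactin, read 442, 688 and 378 at 18 h and 199, 218 and 184 at 42 h. It fell by a fitted 2.33-fold (-1.22 ± 0.16, adjusted p = 0.0311), and its 42 h arrays lay close together while letter B stood highest at 18 h. Its second probe set gave -1.18 (adjusted p = 0.00335). Pik3ap1, an adaptor that links receptors to phosphoinositide 3-kinase, read 122, 93.6 and 113 at 18 h and 59.7, 40.3 and 50.7 at 42 h. It stood out for even steps between letters, of -0.87, -0.96 and -0.96, and a change of -0.93 ± 0.096 (adjusted p = 0.0147). Parm1, a mucin-like membrane protein, read 146, 200.02 and 168 at 18 h and 98.4, 94.4 and 83.9 at 42 h, with a change of -0.78 ± 0.097 (adjusted p = 0.0302).

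Other genes that fell encode enzymes and transporters. Acss2, which makes cytosolic acetyl-CoA from acetate, read 949.7, 562 and 843 at 18 h and 442, 363 and 409.99 at 42 h, a change of -0.90 ± 0.11 (adjusted p = 0.0283), and its second probe set changed by -0.86 (adjusted p = 0.0406). Plod2, a lysyl hydroxylase of collagen, read 258, 165 and 125 at 18 h and 122, 93.8 and 52.8 at 42 h and changed by -0.92 ± 0.11 (adjusted p = 0.0283). Letter C lay lowest and letter A highest at both times. Ak1, a cytosolic adenylate kinase, read 207, 209 and 235 at 18 h and 106, 129.5 and 141 at 42 h. It had no overlap between times and changed by -0.73 ± 0.059 (adjusted p = 0.0101), but its second probe set gave -0.0046 (adjusted p = 0.991), so the probe sets of this gene disagree. Dcxr, a dicarbonyl and xylulose reductase, read 281, 384 and 374 at 18 h and 194, 239 and 197 at 42 h, with a change of -0.67 ± 0.085 (adjusted p = 0.0305). Among transporters, Slc24a3, a potassium-dependent sodium and calcium exchanger, read 189, 257 and 217 at 18 h and 114, 110.3 and 117 at 42 h. Its 42 h values lay within a few units of each other and its change was -0.86 ± 0.13 (adjusted p = 0.0441). The thiamine transporter Slc19a2 read 522, 465 and 395 at 18 h and 301, 251 and 262 at 42 h, with a change of -0.73 ± 0.090 (adjusted p = 0.0302). Cpd, a membrane-bound carboxypeptidase, read 338, 210.3 and 124 at 18 h and 188, 103 and 77.9 at 42 h. Its groups overlapped because letter A stood high at both times, and it changed by -0.77 ± 0.076 (adjusted p = 0.0134) within letters.

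Further enzymes were among the falls. Acadl and Acad11, acyl-CoA dehydrogenases that open the oxidation of fatty acids, changed by -0.30 ± 0.038 (adjusted p = 0.0305) and by -0.66 ± 0.097 (adjusted p = 0.0441). These genes, and those in the rest of this paragraph other than Aco1 and Rb1, were named after their values were seen. Aco1, a cytosolic aconitase that doubles as the iron-responsive RNA-binding protein IRP1, read 3489, 3028 and 3196 at 18 h and 2651, 1956 and 2027 at 42 h. It was the 1 of 9 tested genes of iron uptake and storage to pass (-0.56 ± 0.076, adjusted p = 0.0341). Pcyt1b, which makes an intermediate of phosphatidylcholine, changed by -0.52 ± 0.048 (adjusted p = 0.0113), and Sat1, which acetylates polyamines, by -0.34 ± 0.047 (adjusted p = 0.0345). Rb1, the retinoblastoma protein that restrains E2F factors, read 2770.4, 2161 and 2488 at 18 h and 2001, 1693 and 1875 at 42 h. It was the 1 of 19 tested D cyclin, CDK inhibitor and RB family genes to pass, at -0.41 ± 0.051 (adjusted p = 0.0305), and its second probe set gave -0.020 (adjusted p = 0.990).

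The remaining genes that fell are given by value only. Plac8, a small cysteine-rich protein of myeloid cells, changed by -0.39 ± 0.048 (adjusted p = 0.0291), Mgat5, which branches N-glycans, by -0.45 ± 0.041 (adjusted p = 0.0113), and Gphn, the scaffold gephyrin, by -0.45 ± 0.046 (adjusted p = 0.0147). Mpp1, the membrane scaffold p55 of red cells, read 583, 609 and 612 at 18 h and 461, 449 and 469 at 42 h and changed by -0.37 ± 0.045 (adjusted p = 0.0291). Its 18 h values lay within a narrow band, as did its 42 h values, and it passed without the block too (adjusted p = 0.0399). Calcoco1, a coiled-coil protein, changed by -0.68 ± 0.087 (adjusted p = 0.0306), Esrp2, a regulator of splicing, by -0.50 ± 0.068 (adjusted p = 0.0341), and Dglucy, a D-glutamate cyclase, by -0.58 ± 0.054 (adjusted p = 0.0113). The less characterized Pqlc3, AB124611, 1700006J14Rik and 9230114K14Rik had changes of -0.51, -0.64, -0.68 and -0.62. Of the 41 genes, 19 had a second tested probe set, and 3 passed there. All 19 had a change of the same sign, but it was near 0 for Ak1 (-0.0046) and Rb1 (-0.020). For Plod2 the smallest change over its alternative limma fits was -0.40, and for Cpd it was -0.36. Their adjusted p reached 0.643 and 0.934.

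Only 4 genes rose past the threshold. Zfp800, a zinc finger protein, read 293, 381 and 231 at 18 h and 599, 729 and 330.00 at 42 h. Letter C stayed low at both times, so the groups overlapped, and the change was 0.80 ± 0.10 (adjusted p = 0.0311), with 0.20 (adjusted p = 0.834) at its second probe set. Selenoh, a nuclear selenoprotein, read 2132, 1705 and 1798 at 18 h and 2892, 2427 and 2279 at 42 h. Snhg4, a host transcript of small nucleolar RNA, read 1299, 1380.3 and 1447 at 18 h and 1808, 1909 and 1784 at 42 h. Neither overlapped between times, and their changes were 0.43 ± 0.057 (adjusted p = 0.0339) and 0.41 ± 0.046 (adjusted p = 0.0256). Fkbp2, a peptidyl-prolyl isomerase of the endoplasmic reticulum, read 886, 998 and 1031 at 18 h and 1159.9, 1186 and 1320.3 at 42 h and changed by 0.33 ± 0.048 (adjusted p = 0.0441).

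The next genes by p-value, higher at 42 h in every letter but not past the threshold, are given as values. Dnmt3a, a de novo DNA methyltransferase, read 410.4, 676 and 529 at 18 h and 890.5, 1234 and 739 at 42 h, with 0.80 ± 0.14 (adjusted p = 0.0803), but its second probe set gave -0.030 (adjusted p = 0.988). Rbmx, an RNA-binding protein of splicing, had 0.68 ± 0.11 (adjusted p = 0.0672), and Dnajc21, a chaperone of ribosome assembly, 0.50 ± 0.086 (adjusted p = 0.0701). Nme6, Rcn1 and Pclaf, the last a partner of PCNA, had changes of 0.36, 0.26 and 0.26, with adjusted p of 0.0691, 0.0672 and 0.0701.

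**Figure D1:**
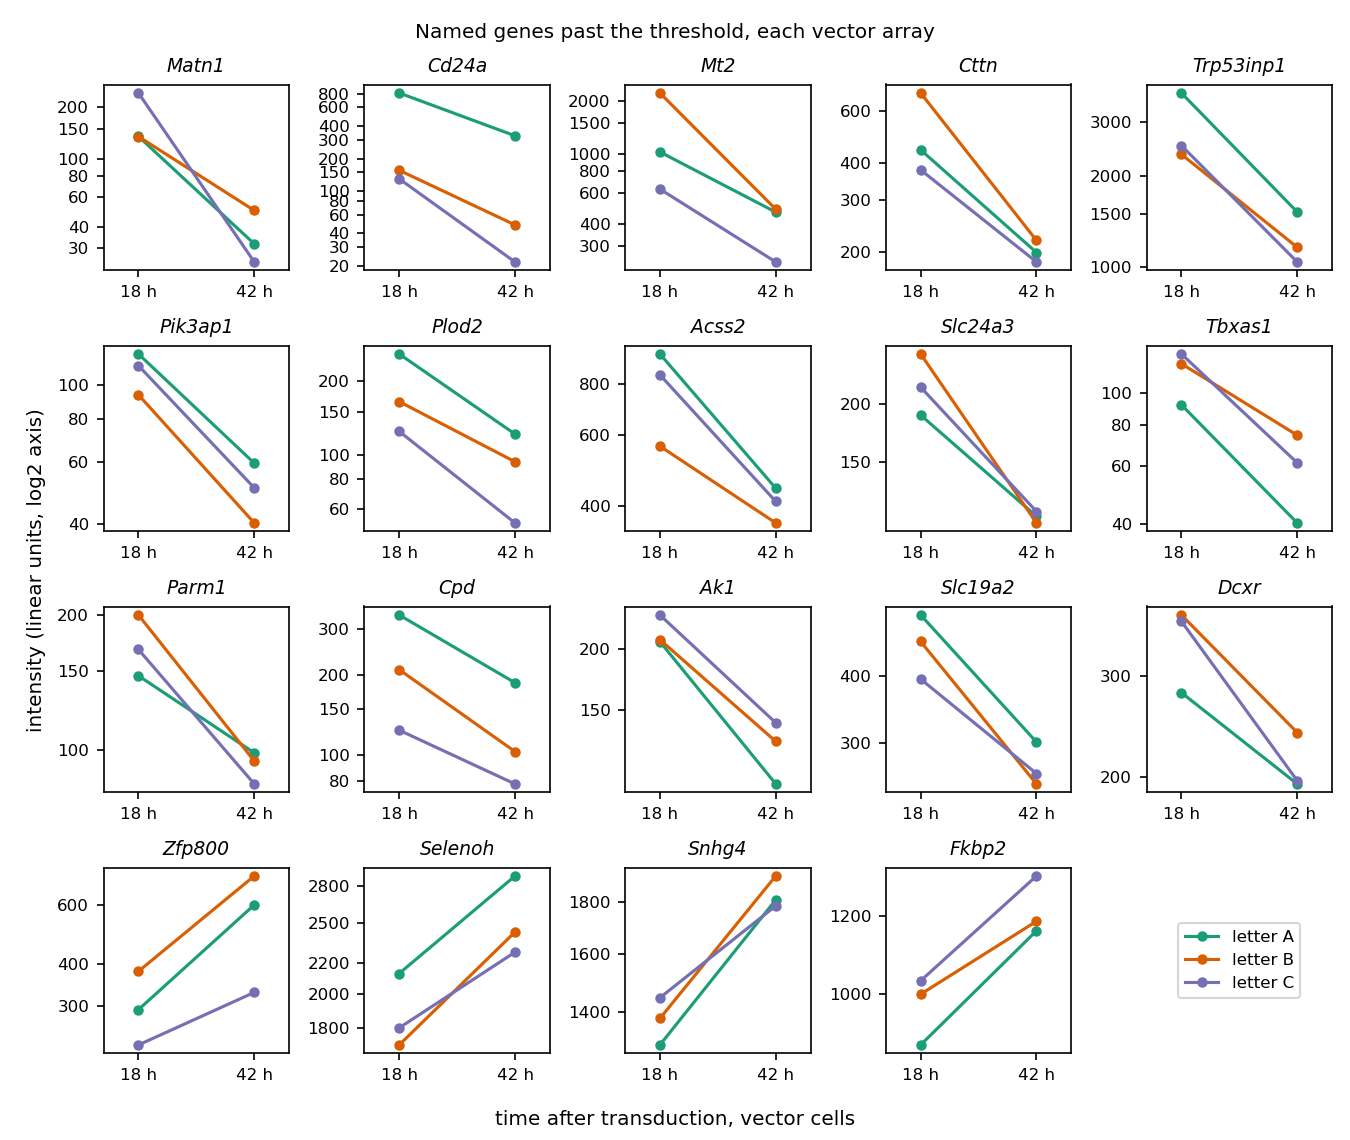
Intensity (linear units on a log2 axis) of the 19 named genes past the threshold on each vector array at 18 h and 42 h, with 1 line per letter. The lines of a gene run the same way in all 3 letters. For Cd24a, Cpd and Zfp800 the 18 h and 42 h arrays overlap.

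Targets of p53 were the gene list with the largest share of members lower at 42 h. Of 22 genes in the list 20 were measured and 18 tested, and 2 of the 18 fell (0.344% of all genes tested fell), 0 rose and 16 did not pass. The list's median change was -0.23, with -0.26 in letter A, -0.31 in letter B and -0.29 in letter C, against a median of -0.011 over all genes tested. Within letters, 14 of the 18 (77.8%) were lower at 42 h in all 3 letters and 0 were higher in all 3. The shares over all genes tested were 22.5% and 11.5%. Among genes over 100 on at least 3 arrays, 12 of 16 list members and 16.7% of all such genes were lower in all 3 letters. The arrays of the times did not overlap for 8 of the 18, with 42 h lower in each, against 7.18% of all genes tested. The summed intensity of the list lay between 27790 and 32388 at 18 h and between 20322 and 22790 at 42 h. The list was drawn up with earlier results of these data known, so these counts are a description.

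Trp53inp1, a p53-induced nuclear protein that promotes autophagy and cell death, read 3744, 2353 and 2514 at 18 h and 1519.7, 1163 and 1041 at 42 h. Letter A was brightest at both times, and every 42 h array lay below every 18 h array. It fell by a fitted 2.27-fold (-1.19 ± 0.097, adjusted p = 0.0101), while its second probe set gave -0.52 (adjusted p = 0.561). Ccng1, cyclin G1, which feeds back on MDM2, read 13679, 11464 and 11867 at 18 h and 9269.8, 8046 and 8269 at 42 h. Its letters fell by nearly equal steps (-0.56, -0.51 and -0.52), the change was -0.53 ± 0.050 (adjusted p = 0.0113), and its second probe set gave -0.72 (adjusted p = 0.0878). The related Trp53inp2, which is not in the list, had the smallest p of all genes (-0.78 ± 0.052, adjusted p = 0.00685, and an adjusted p of 0.00483 without the block). It is a dim probe set, at 37.4, 34.3 and 34.1 at 18 h and 15.1, 11.3 and 15.3 at 42 h, and was singled out after its values were seen.

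Other p53 targets lay lower at 42 h without passing, and are named here after their values were seen. Cdkn1a, the CDK inhibitor p21 that halts the cell cycle, read 3499, 3392 and 3263 at 18 h and 2525, 2696 and 2043 at 42 h. Its arrays did not overlap between times, but letter C differed more than letter B, and the change was -0.49 ± 0.13 (adjusted p = 0.221). Mdm2, the ubiquitin ligase that removes p53, read 1037, 969.9 and 841 at 18 h and 484, 776 and 636 at 42 h, with -0.60 ± 0.22 (adjusted p = 0.386). Letter A carried most of that difference. The BH3-only death factor Bbc3 (PUMA) read 946, 841 and 935 at 18 h and 563, 682 and 574 at 42 h, with -0.57 ± 0.094 (adjusted p = 0.0672). Gtse1, a G2 phase regulator that restrains p53, read 445, 535 and 405 at 18 h and 299, 309 and 292 at 42 h, with -0.59 ± 0.10 (adjusted p = 0.0803). Both were lower on each 42 h array than on any 18 h array. Zmat3, an RNA-binding target of p53, and Phlda3, an inhibitor of AKT, had changes of -0.70 ± 0.13 (adjusted p = 0.0988) and -0.44 ± 0.15 (adjusted p = 0.336). At the other end of the list Sesn1, a sestrin that restrains mTORC1, had -0.047 ± 0.072 (adjusted p = 0.922), and Ddb2, a sensor of ultraviolet DNA damage, 0.14 ± 0.15 (adjusted p = 0.842). Pmaip1 (NOXA) was under 20 on all 6 arrays, too dim for a change to show on this scale.

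Promoter sequences show where some of these genes carry the letters p53 is known to bind. The p53 half-site consensus is a 10-base motif that reads the same on both strands, so 1 search covers both. It was searched without mismatches in the RefSeq promoter table (assembly GRCm38.p6), which holds 300 bases per start site, from 250 before it to 50 after. The motif was in 8.36% of 32851 promoters and in the promoters of 8.44% of the 8824 tested genes with an entry. Of the 18 tested list members 12 had an entry and 9 of those held it. Since the list names genes known as p53 targets, that share is no finding. Of the 41 genes past the threshold 33 had an entry and 2 (6.06%) held it. The first 4 sequences belong to list members that lay further below 0, of which only Ccng1 passed, and the last 2 to list members with changes near 0. Each is 30 bases in the direction of transcription with the half-site in capitals.
Cdkn1a, chr17:29090918-29090947, plus strand: tggccttcagGAACATGTCTtgacatgttc
Mdm2, chr10:117710925-117710954, minus strand: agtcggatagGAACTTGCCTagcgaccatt
Ccng1, chr11:40755452-40755481, minus strand: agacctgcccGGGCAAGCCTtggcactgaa
Gtse1, chr15:85859945-85859974, plus strand: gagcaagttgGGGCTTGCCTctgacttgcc
Sesn1, chr10:41887256-41887285, plus strand: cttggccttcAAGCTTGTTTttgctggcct
Aen, chr7:78895927-78895956, plus strand: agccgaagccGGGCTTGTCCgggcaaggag
The capitals begin 51 bases before an annotated start of Cdkn1a, 186 before that of Mdm2, 185 before that of Ccng1 and 173 before an annotated start of Sesn1. The same Cdkn1a promoter holds a further half-site 73 bases before its start. Cdkn1a, Sesn1 and Gtse1 each have another annotated start, with 0 half-sites in its window. In Gtse1 the capitals begin 9 bases after an annotated start, and in Aen 121 before 1 annotated start and 10 after the other. Aen, an exonuclease of the p53 response, had -0.082 ± 0.061 (adjusted p = 0.736). The motif thus stood both in promoters of genes that were lower at 42 h and in those of genes with changes near 0.

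Cholesterol synthesis showed the next largest share after p53 targets among the lists of cell function. Of 19 tested genes of the pathway and its receptor 2 fell (0.344% of all genes tested fell), 0 rose and 17 did not pass. Within letters 12 (63.2%) were lower in all 3 and 0 higher in all 3. All 19 were over 100 on at least 3 arrays, where 16.7% of genes were lower in all 3 letters. The median change was -0.15, with -0.27 in letter A and -0.12 in each of the others. The summed intensity of the list overlapped between times (117487 to 136141 at 18 h, 107003 to 118459 at 42 h). Tm7sf2, a sterol reductase, read 791, 506 and 642 at 18 h and 510.5, 361 and 431 at 42 h, with a change of -0.55 ± 0.070 (adjusted p = 0.0305) and overlapping groups. Nsdhl, which removes methyl groups from the sterol ring, read 5609, 4504 and 4678 at 18 h and 4340.4, 3429 and 3606 at 42 h, with even steps of -0.37, -0.39 and -0.37 in the letters and a change of -0.38 ± 0.044 (adjusted p = 0.0278).

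The rest of the pathway did not pass. Enzymes of the mevalonate steps named after their values were seen were Mvd, at -0.33 ± 0.056 (adjusted p = 0.0701), and Pmvk, at -0.31 ± 0.084 (adjusted p = 0.220). Hmgcs1, which makes the precursor of mevalonate, had -0.090 ± 0.056 (adjusted p = 0.650), Idi1, the isopentenyl isomerase, -0.15 ± 0.051 (adjusted p = 0.338), and Sqle, squalene epoxidase, -0.12 ± 0.037 (adjusted p = 0.269). Srebf2, the gene of SREBP2 itself, had -0.023 ± 0.19 (adjusted p = 0.981), and its letters went different ways (-0.28, 0.53 and -0.32). The cytosolic enzyme Acss2, described among the falls, feeds the same acetyl-CoA pool but is not in the list. Of 12 tested genes of fatty acid synthesis 0 passed, with -0.082 for Srebf1 and -0.17 for Acly. In all 3 letters 3 (25%) were lower and 0 higher, against 22.5% and 11.5% of all genes tested.

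**Figure D2:**
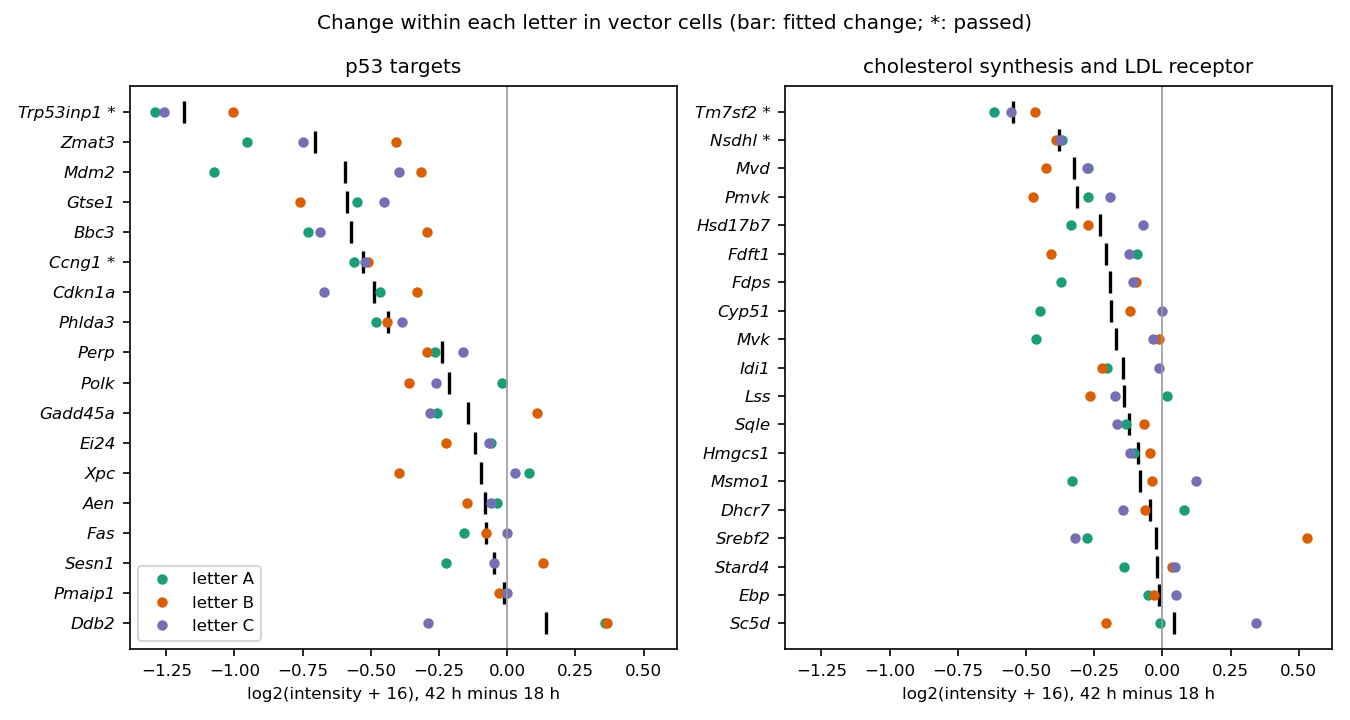
Log2(intensity + 16) at 42 h minus 18 h of each tested p53 target (left) and each tested gene of cholesterol synthesis and the LDL receptor (right); points are the 3 letters, bars the fitted changes and asterisks mark genes that passed. All 3 points lie below 0 for 14 of 18 p53 targets and 12 of 19 cholesterol genes.

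Genes of ribosome biogenesis and of DNA replication leaned the other way, with 0 genes past the threshold. Of 30 tested genes of ribosome biogenesis and MYC targets 12 were higher in all 3 letters and 0 lower, where 11.5% of all genes tested and 13.9% of genes over 100 were higher. The median was 0.094, against -0.011 over all genes tested, with 0.20 in letter A, 0.00036 in letter B and 0.073 in letter C, so letter B hardly took part. Myc read 1649, 2723 and 2903 at 18 h and 2068, 2777 and 2706 at 42 h, with a change of 0.084. Mycn read 33977, 36835 and 35064 at 18 h and 35299, 37326 and 33081 at 42 h, with a change of -0.0033. For both the times overlapped. Of 33 tested DNA replication genes 11 (33.3%) were higher and 2 (6.06%) lower in all 3 letters, with a median of 0.087 and letter medians of 0.056, 0.058 and 0.13. The summed intensity of that list lay between 147796 and 158852 at 18 h and between 159439 and 165132 at 42 h, without overlap. Pcna, the sliding clamp, read 26429, 27212 and 25977 at 18 h and 26430.0, 27796 and 27284 at 42 h. Mcm2, a subunit of the replicative helicase, read 4904, 6655 and 6527 at 18 h and 5999, 8157 and 7028 at 42 h. Both overlapped between times, with changes of 0.034 ± 0.038 (adjusted p = 0.869) and 0.23 ± 0.077 (adjusted p = 0.313). Of 29 tested mitosis genes 5 (17.2%) were higher and 6 (20.7%) lower in all 3 letters, and the letter medians were -0.17, 0.00039 and 0.18. Of all genes tested 22.5% were lower in all 3 letters.

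Lists of immune and early response genes held 0 genes past the threshold. Of 23 tested interferon response genes 2 (8.7%) were higher and 4 (17.4%) lower in all 3 letters, against 11.5% and 22.5% of all genes tested. Ifit2 read 141, 109 and 102 at 18 h and 136, 125 and 128 at 42 h, with 0.14 ± 0.083 (adjusted p = 0.629). Oas1a read 1249, 1249 and 1377 at 18 h and 995, 967 and 1136 at 42 h, lower on every 42 h array, with -0.32 ± 0.12 (adjusted p = 0.405). Of 17 genes of innate sensing and NF-kB targets 6 were lower and 2 higher in all 3 letters, with 0.13 for Nfkbia and -0.12 for Tnfaip3, both inhibitors in that pathway. Of 13 immediate early genes 5 were lower and 0 higher, with a median of -0.20. Jun read 207, 164 and 157 at 18 h and 94.6, 106 and 74.5 at 42 h, lower on every 42 h array, at -0.84 ± 0.19 (adjusted p = 0.174), while Junb had 0.11 ± 0.12 (adjusted p = 0.858). Of 11 tested antigen presentation genes 3 were higher and 1 lower, with 0.25 for H2-K1 and 0.27 for H2-D1. Genes of chromatin and retroviral silencing, such as Trim28 (0.14) and Setdb1 (0.094), had 4 of 19 higher and 1 lower.

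Cytokine receptors and their feedback genes went in both directions. Kit, the receptor of stem cell factor, read 283, 411 and 354 at 18 h and 731, 730.01 and 431 at 42 h. Each 42 h array was brighter than each 18 h array, letter A differed most (1.32, 0.81 and 0.27 in letters A, B and C) and the change was 0.80 ± 0.20 (adjusted p = 0.204). Csf2rb, the shared beta chain of the IL-3, IL-5 and GM-CSF receptors, was named after its values were seen. It read 5743, 6707 and 10314 at 18 h and 5722, 4793 and 3868 at 42 h, with a step in letter C and hardly any in letter A, and -0.63 ± 0.22 (adjusted p = 0.340). Of 12 receptors 4 (33.3%) were lower and 2 (16.7%) higher in all 3 letters, against 22.5% and 11.5% of all genes tested. Of 13 JAK-STAT feedback genes 5 (38.5%) were higher and 3 (23.1%) lower, with a median of 0.15. The suppressors Cish and Socs2 had 0.23 ± 0.074 (adjusted p = 0.299) and 0.32 ± 0.13 (adjusted p = 0.420).

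The other lists of cell function had 0 genes past the threshold apart from Aco1 and Rb1. The shares of all genes tested that were lower and higher in all 3 letters were 22.5% and 11.5%. Among genes over 100 on at least 3 arrays they were 16.7% and 13.9%. In the lists that follow the shares ran from 6.25% to 37.5% lower and from 0% to 37.5% higher. In all 3 letters, unfolded protein response genes were higher in 6 (37.5%) and lower in 1 (6.25%) of 16 (Hspa5 0.22, Xbp1 0.15). ATF4 and amino acid stress genes were higher in 4 and lower in 4 of 22 (Atf4 0.12, Asns 0.19). Its member Ddit4, an inhibitor of mTORC1 named after its values were seen, read 1781, 1158 and 1272 at 18 h and 773, 639 and 817 at 42 h, lower on every 42 h array, at -0.89 ± 0.15 (adjusted p = 0.0701). Oxidative stress and glutathione genes were lower in 6 and higher in 1 of 16 (Nfe2l2 -0.057, Hmox1 -0.23), and autophagy and lysosome genes lower in 6 and higher in 0 of 20 (Ulk1 -0.11, Sqstm1 -0.24). BCL2 family genes were lower in 4 and higher in 2 of 12 (Bcl2 -0.18, Bcl2l1 0.083). Hypoxia targets were higher in 3 and lower in 2 of 13 (Hif1a 0.055, Vegfa -0.41), and glycolysis genes lower in 2 and higher in 1 of 15 (Hk1 -0.048, Hk2 0.32). Heat shock genes were lower in 2 and higher in 0 of 10 (Hspa1b -0.18, Hspa8 -0.012), and cytoskeleton and adhesion genes lower in 4 and higher in 0 of 17 (Actb -0.0064, Actg1 0.026). Iron genes were higher in 3 and lower in 2 of 9, and D cyclin, CDK inhibitor and RB family genes lower in 5 and higher in 2 of 19. The summed intensity did not overlap between times for the D cyclin list (29384 to 30643 at 18 h, 27996 to 28773 at 42 h) or the autophagy and lysosome list (42803 to 46104 at 18 h, 39795 to 42403 at 42 h). Sums also separated for 12 embryonic stem cell genes, all under 20 on all 6 arrays (73.2 to 75.3 at 18 h, 71.4 to 72.9 at 42 h). Separation of sums is thus seen even in a list too dim to read.

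**Figure D3:**
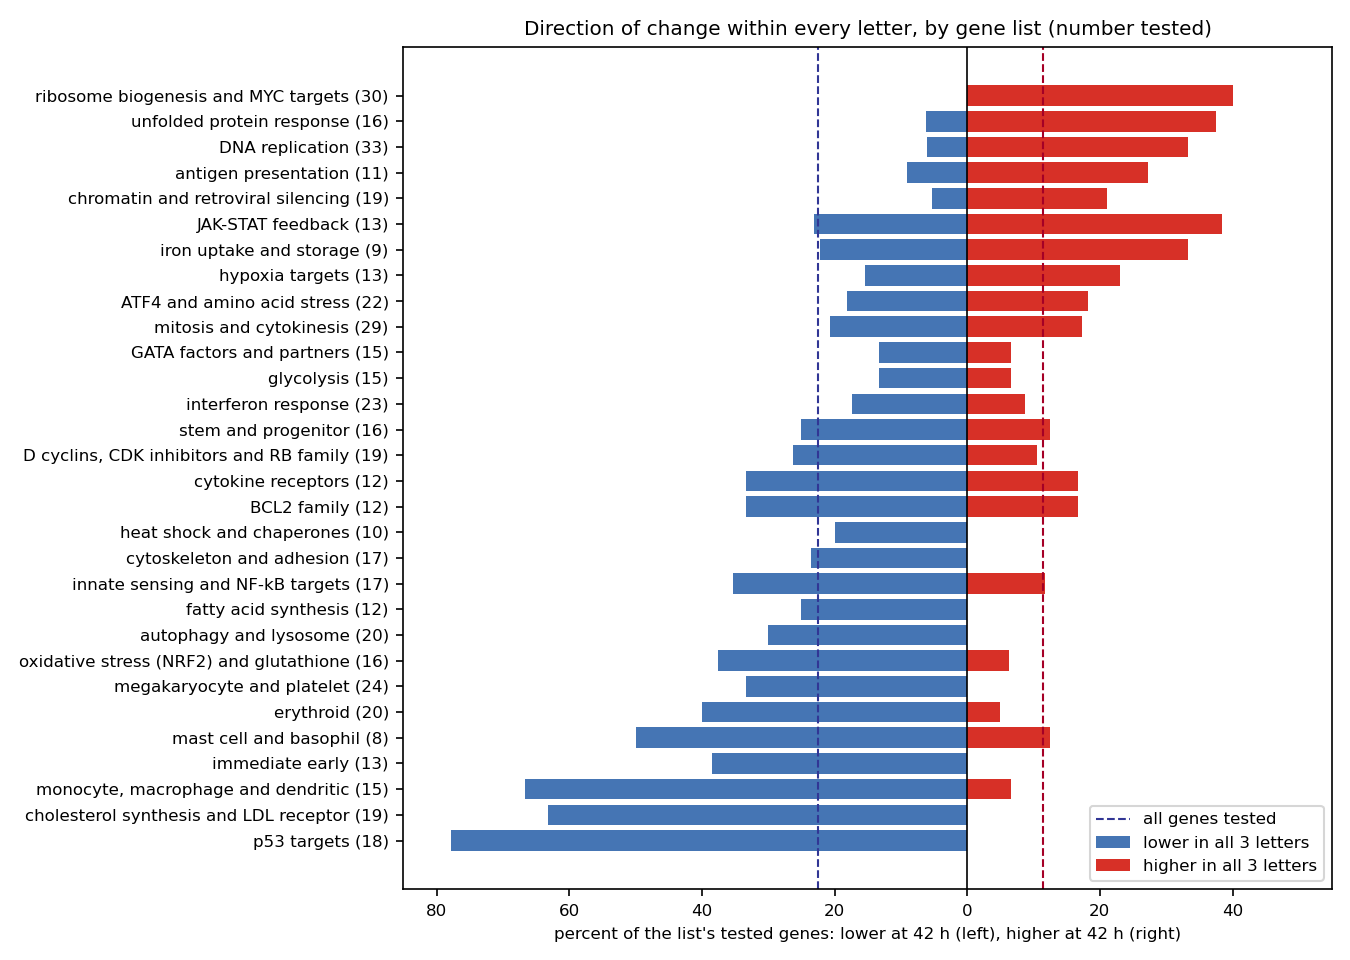
Percent of each list's tested genes that were lower (left) or higher (right) at 42 h in all 3 letters, with the number tested in brackets and dashed lines at the shares of all genes tested, 22.5% and 11.5%; lists with fewer than 8 tested genes are left out. The p53 list reaches 77.8% on the left and ribosome biogenesis 12 of 30 genes on the right.

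Among the lineage marker lists, the megakaryocyte and platelet list alone held genes past the threshold. Of its 24 tested genes 2 fell and 0 rose, where 0.344% of all genes tested fell. In all 3 letters 8 (33.3%) were lower and 0 higher, against 22.5% and 11.5% of all genes tested. Tbxas1, thromboxane synthase, read 92.2, 123 and 131 at 18 h and 40.3, 74.5 and 61.4 at 42 h, with -0.83 ± 0.077 (adjusted p = 0.0113). Plek, pleckstrin, a substrate of protein kinase C in platelets, read 15447, 13322 and 14436 at 18 h and 11196, 11226 and 11509 at 42 h, a change of -0.35 ± 0.049 (adjusted p = 0.0409). Itga2b, which defines the lineage as CD41, had 0.11 ± 0.14 (adjusted p = 0.894), and Pf4, platelet factor 4, 0.010 ± 0.13 (adjusted p = 0.991). Thbs1, thrombospondin 1, named after its values were seen, read 334, 178 and 389.8 at 18 h and 73.7, 132 and 81.2 at 42 h and had -1.47 ± 0.40 (adjusted p = 0.223), with letter B far smaller in its step than the others. The summed intensity of the list lay between 48977 and 57525 at 18 h and between 45181 and 50014 at 42 h, so the times overlapped.

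Among 20 tested erythroid genes 0 passed, and the median was -0.011. In all 3 letters 8 (40%) were lower and 1 (5%) higher, against 22.5% and 11.5% of all genes tested. Among those over 100 on at least 3 arrays 6 of 15 were lower, against 16.7% of all such genes. The embryonic globin Hbb-y read 30.7, 23.7 and 120.4 at 18 h and 27.8, 55.4 and 41.9 at 42 h, and its relative Hbb-bh1 read 128, 220.2 and 1015 at 18 h and 139, 419 and 581 at 42 h. Both varied several-fold between letters at 18 h. Among 15 GATA factors and partners 0 passed. Gata2, the GATA factor of early progenitors, read 2109, 2551 and 3900.4 at 18 h and 2729, 3985 and 2910.0 at 42 h, with 0.20 ± 0.23 (adjusted p = 0.879). Among 16 tested stem and progenitor genes 0 passed, with 0.012 for Meis1.

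Markers of other cells that a sort could carry were examined beside these changes. Of 15 tested monocyte, macrophage and dendritic genes 0 passed, and 10 (66.7%) were lower and 1 (6.67%) higher in all 3 letters. The shares of all genes tested were 22.5% lower and 11.5% higher. Among those over 100 on at least 3 arrays 5 of 8 were lower, against 16.7% of all such genes. Their summed intensity lay between 6975 and 8111 at 18 h and between 6359 and 6775 at 42 h, without overlap. Of the 25 measured genes of this list 7 were over 100 on all 6 arrays, among them Spi1, Lyz1, Lyz2 and Fcgr3. Another 15, among them Cd68, Adgre1, Itgam and Fcgr1, were under 20 on all 6 arrays, and Csf1r lay between 19.3 and 21.1. The stromal fibroblast sum did not overlap either, at 2743 to 3361 at 18 h and 2192 to 2732 at 42 h. In that list 18 of 20 measured genes were under 20 on all 6 arrays, and Vim, the 1 gene over 100 on all of them, had a change of -0.37 ± 0.19 (adjusted p = 0.550). Whether these shifts had a part in the falls was not tested. Of 8 tested mast cell and basophil genes 4 (50%) were lower and 1 (12.5%) higher in all 3 letters, with 0.21 ± 0.13 (adjusted p = 0.673) for Cpa3. Lymphoid genes were lower in 1 of 7 (14.3%), stromal fibroblast genes in 2 of 6 (33.3%) and endothelial genes in 1 of 5 (20%). In the endothelial list 1 gene (Esam) was higher. Of 3 tested eosinophil and neutrophil granule genes 1, Mpo, was higher in all 3 letters, at 0.79 ± 0.23 (adjusted p = 0.250).

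The baseline of the line was read from both times together, since few genes passed between them. Of 18193 genes 7177 (39.4%) exceeded an intensity of 100 on all 6 vector arrays, and 9135 (50.2%) stayed under 20 on all 6. GATA factors and partners were almost all bright: 15 of 16 measured genes exceeded 100 on all 6 arrays, among them Gata2, Zfpm1, which encodes the cofactor FOG1, and Tal1, the haematopoietic factor SCL. Gata3 stayed under 20. The Gata1 probe set was bright as well, at 2815, 2864 and 3329 at 18 h and 3088, 3053 and 3268 at 42 h, in cells labelled Gata1-negative. No source used here says which part of the gene was disrupted or where the probes map, so this reading is no check of the label.

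Bright and dim genes stood side by side in the megakaryocytic and erythroid lists. In the megakaryocyte and platelet list 17 of 28 measured genes (60.7%) exceeded 100 on all 6 arrays and 7 stayed under 20. The bright ones included Itga2b, Pf4 and the platelet receptor subunits Gp1bb and Gp9. Gp6, the collagen receptor, Vwf, von Willebrand factor, Selp, P-selectin, and Cxcr4 stayed under 20. Of 22 erythroid genes 8 (36.4%) exceeded 100 and 11 stayed under 20, shares close to those of all genes measured (39.4% and 50.2%). Klf1, the erythroid Krüppel-like factor, lay between 168 and 323, Car2, a carbonic anhydrase, between 24089.8 and 26812, and Epb42, a protein of the red cell membrane, between 204 and 259. Hba-a1, Hba-x, Alas2, the first enzyme of haem synthesis in erythroid cells, and Slc4a1, the anion exchanger band 3, were under 20 throughout.

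Markers of stem and progenitor cells were split, with 13 of 26 over 100 and 11 under 20. Kit, Meis1, Mycn and Myb were among the former, and Cd34, Hoxa9, Hoxb4 and Hoxa10 among the latter. Mast cell and basophil genes had 5 of 19 over 100, namely Cpa3, a granule protease, Kit, Gata2, Srgn and Fcer1g, and 12 under 20, with Fcer1a, Ms4a2, Mcpt8 and Mcpt1 among these. Monocyte, macrophage and dendritic genes had 7 of 25 over 100, among them Spi1 (PU.1), Lyz1, Lyz2 and Fcgr3, and 15 under 20.

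Lists of other lineages held few bright genes. Eosinophil and neutrophil granule genes had 0 of 15 over 100 on all 6 arrays and 13 under 20, and Mpo lay between 37.3 and 181. Lymphoid genes had 1 of 21 over 100, Ikzf1, which progenitors also express. Stromal fibroblast genes had 1 of 20, Vim, and 18 under 20, including Col1a1, Col1a2 and Col3a1. Endothelial genes had 3 of 12, Pecam1, Tie1 and Esam, while Cdh5, Kdr, Emcn and Sox17 stayed under 20. All 12 embryonic stem cell genes stayed under 20, including Pou5f1 and Nanog.

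**Figure D4:**
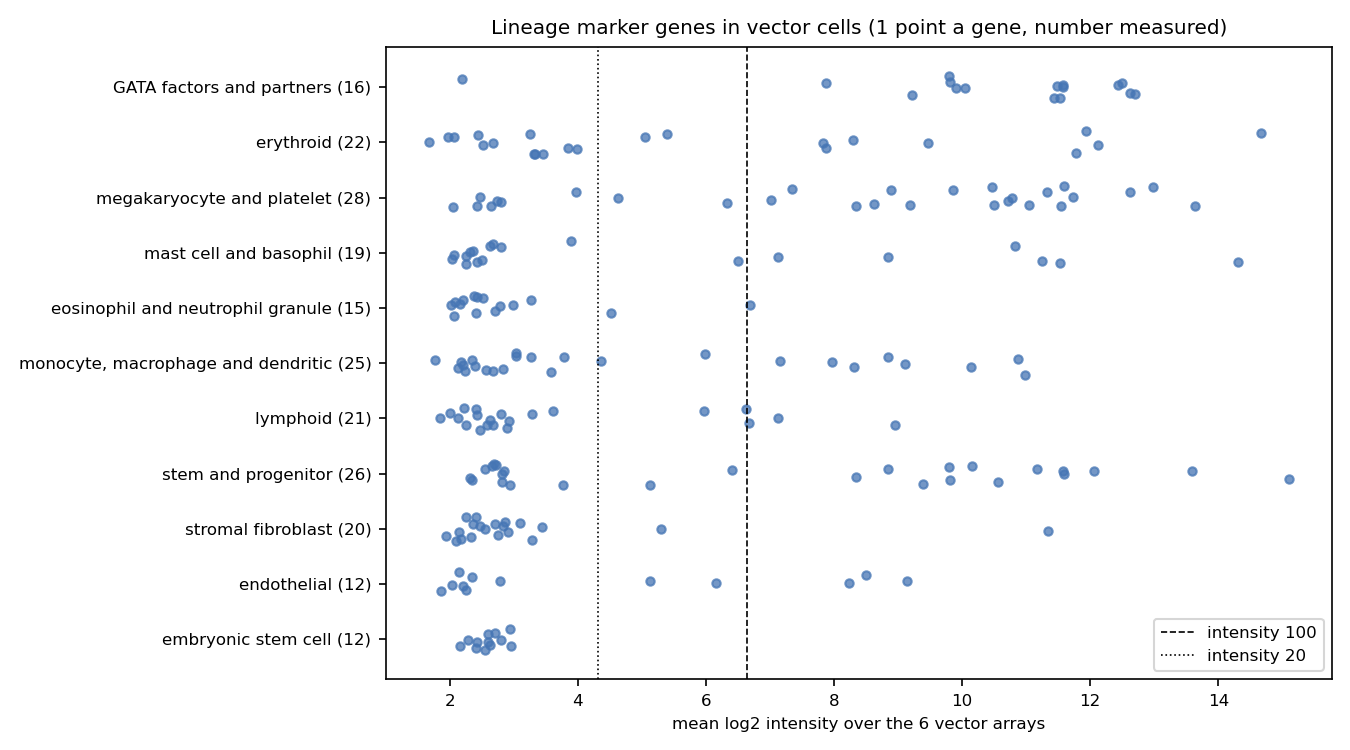
Mean log2 intensity over the 6 vector arrays of each measured marker gene, 1 point per gene, with lines at intensities of 20 and 100. GATA factors and partners lie right of the upper line in all but 1 case, and all 12 embryonic stem cell genes lie left of the lower line.

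Fewer genes passed between the times in vector cells than in cells given GATA1, which share no array with them. In GATA1 cells 2315 genes (21.5%) passed between 18 h and 42 h, 1082 (10.1%) higher and 1233 (11.5%) lower. The median size of change was 0.14 there, against 0.071 in vector cells. Of the 37 genes that fell in vector cells 31 were lower at 42 h in GATA1 cells too, and 25 of the 37 fell there by the same test, while 2 rose. Of the 4 that rose in vector cells 3 rose in GATA1 cells as well, and Selenoh fell there (-0.21 ± 0.057, adjusted p = 0.0402). Over all genes tested, 58.3% had changes of the same sign in both, and the correlation of the changes across genes was 0.24. Genes are not independent replicates, and both changes come from 1 fit.

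Whether time acted differently in the 2 kinds of cell was tested by the difference of the time changes. It passed in 846 of 10759 genes (7.86%), 402 (3.74%) higher and 444 (4.13%) lower in GATA1 cells, and in 501 without the letter as a block. With the filter applied to the vector arrays alone it passed in 792 of 10635. The 5 largest positive values belonged to Car1, a carbonic anhydrase, Hba-x, an embryonic globin, Slc38a5, an amino acid transporter, Ces2g, a carboxylesterase, and Vwf. All 5 were under 20 on all 6 vector arrays and entered the test only through the GATA1 arrays, where they are high, so they had to differ. A change in vector cells could hardly show at that level on this scale, and their levels are given as a description, with no difference or test. Car1 lay between 6.21 and 6.46 on the vector arrays and read 19.9, 11.6 and 15.3 at 18 h and 1777, 2319 and 2293 at 42 h in GATA1 cells. Hba-x lay between 3.87 and 3.97 on the vector arrays and read 3.95, 3.90 and 3.92 at 18 h and 1415, 765 and 1577 at 42 h in GATA1 cells. In the other direction Cpa3 read 888, 753 and 756 at 18 h and 62.2, 55.5 and 31.9 at 42 h in GATA1 cells, a difference of -3.86 ± 0.19 (adjusted p = 5.52e-05), and in vector cells its change was 0.21. Fcgr3, an Fc receptor, Gcnt2, a glycosyltransferase, Crisp3, a cysteine-rich secreted protein, and BC018473 differed by -3.10 ± 0.16 (adjusted p = 6.50e-05), -2.85 ± 0.26 (adjusted p = 0.000962), -2.72 ± 0.15 (adjusted p = 7.24e-05) and -2.50 ± 0.18 (adjusted p = 0.000381).

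Among the 41 genes that changed in vector cells the difference passed for 20, 9 lower and 11 higher in GATA1 cells. These genes were chosen on the vector change, which enters the difference, so the count is a description. Trp53inp1 fell in both kinds of cell, with -1.42 ± 0.097 (adjusted p = 7.87e-05) in GATA1 cells, and the difference did not pass (-0.24 ± 0.14, adjusted p = 0.383). Cttn likewise had -1.28 ± 0.16 (adjusted p = 0.00143) in GATA1 cells, with a difference of -0.061 ± 0.23 (adjusted p = 0.929). Ccng1 and Nsdhl fell in both too, with -0.28 ± 0.050 (adjusted p = 0.00645) and -0.35 ± 0.044 (adjusted p = 0.00133) in GATA1 cells. Cd24a, by contrast, had 0.58 ± 0.22 (adjusted p = 0.101) in GATA1 cells and a difference of 2.14 ± 0.31 (adjusted p = 0.00622), and Mpp1 rose there (0.57 ± 0.045, adjusted p = 0.000163), with a difference of 0.94 ± 0.064 (adjusted p = 0.000252). Plac8 and Pik3ap1 fell further in GATA1 cells, with -2.26 ± 0.048 (adjusted p = 3.22e-07) and -2.16 ± 0.096 (adjusted p = 1.21e-05), with differences of -1.86 ± 0.068 (adjusted p = 1.88e-05) and -1.23 ± 0.14 (adjusted p = 0.00214).

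The p53 and cholesterol lists were set beside their values in GATA1 cells. In GATA1 cells 5 p53 targets fell and 2 rose, 7 were lower and 4 higher in all 3 letters, and the median was -0.16, against 14 lower, 0 higher and -0.23 in vector cells. Of all genes tested 11.5% fell and 10.1% rose in GATA1 cells. The shares of all genes lower and higher in all 3 letters in GATA1 cells were 25.7% and 28.7%. Zmat3 rose there (0.66 ± 0.13, adjusted p = 0.0117), and its difference was 1.36 ± 0.19 (adjusted p = 0.00555). Perp, a membrane protein of cell adhesion, fell there (-2.36 ± 0.16, adjusted p = 6.99e-05) and had a difference of -2.12 ± 0.22 (adjusted p = 0.00166). In the cholesterol list 5 genes were lower and 5 higher in all 3 letters in GATA1 cells, with a median of -0.049. The difference of time changes passed for 2 of the 18 p53 targets and 2 of the 19 cholesterol genes, 1 of them Pmvk (0.78 ± 0.12, adjusted p = 0.00817). It passed in 7.86% of all genes tested, so the shares of both lists lay near the background.

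**Figure D5:**
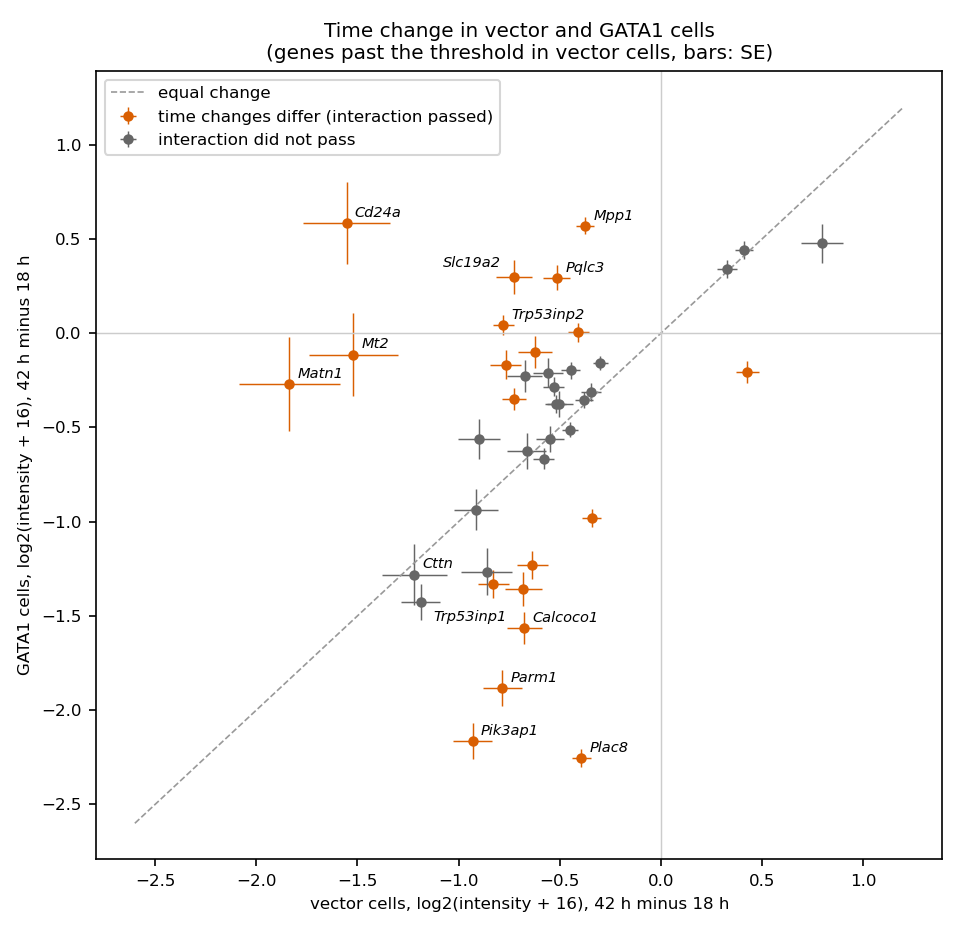
Fitted change from 18 h to 42 h in GATA1 cells (vertical) against that in vector cells (horizontal), in log2(intensity + 16) with SE bars, for the 41 genes past the threshold in vector cells; orange points are the 20 whose difference passed. Cttn and Trp53inp1 lie near the line of equal change, Cd24a and Mpp1 above it and Plac8, Pik3ap1 and Parm1 below it.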

How the data were processed

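RNA of 12 samples in 4 groups of 3 was measured on mouse Affymetrix arrays. The deposited values are linear intensities, 1 per probe set and array. Per the submitters' processing notes GCRMA and MAS5 were in use, with no version; which one made these numbers is not stated in the sources here. No further normalization was applied.

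Of 45101 probe sets 34945 have 1 gene symbol, 932 several, 9160 none and 64 are controls, by the platform annotation; 34741 matched RefSeq gene IDs. Log2(intensity + 16) was fitted in limma 3.58.1 (R 4.3.3) to all 12 arrays in 4 groups with the letter as a block, with 6 residual degrees of freedom. Tests were two-sided, with Benjamini-Hochberg adjustment over the 10759 genes tested, and the fits were tested on simulated data. The letters pair the vector arrays: deviations from the group means correlated by 0.54, 0.38 and 0.36 in letters A, B and C.

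Named genes are the 15 largest falls and rises past the threshold with 1 sign in all letters and a mean over 100 at either time, filled to 10 by p-value, with the 5 largest differences from GATA1 cells each way and up to 2 per list. Comparison, lists and members were chosen with earlier results of these data known. The number of arrays limits the precision. Alternatives changed the block, pseudocount, filter, normalization, probe set, weights and arrays.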

Additional observations from a re-analysis of the deposited data

Results flagged for a closer look

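The change with time differed between GATA1 and vector cells in 846 genes, and the values here are the difference of the changes, GATA1 minus vector, for the 20 of them that also passed in vector cells. These were chosen on the vector change, which enters the difference.

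Cd24a (2.14), Matn1 (1.57), Mt2 (1.41), Slc19a2 (1.02), Mpp1 (0.94), Trp53inp2 (0.82), Pqlc3 (0.81), Cpd (0.60), 9230114K14Rik (0.52), Rb1 (0.41) and Ak1 (0.38) fell in vector cells and were less low, or higher, at 42 h in GATA1 cells. Plac8 (-1.86), Pik3ap1 (-1.23), Parm1 (-1.10), Calcoco1 (-0.89), 1700006J14Rik (-0.68), Sat1 (-0.64), AB124611 (-0.59) and Tbxas1 (-0.50) fell further in GATA1 cells. Selenoh (-0.63) rose in vector cells and fell in GATA1 cells. No group holds 4 or more samples, so single samples were not tested as outliers.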

How the results depend on the processing

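The count of 41 genes (4 higher, 37 lower) stayed within 1.5 times under both other pseudocounts, a filter on the vector arrays alone, quantile normalization and array weights, although weights gave 7 higher genes. Genes over 100 on at least 3 arrays gave 78 (15 higher, 63 lower; 34 of the 41 among them), so the share of higher calls depends on the filter. No filter gave 13 (1 higher, 12 lower), and second probe sets 3 (0 higher, 3 lower) of 5087 tested. By limma 0 genes passed (0 higher, 0 lower) with only the 6 vector arrays and the block (1099 at an unadjusted p under 0.05) and without the 4 arrays lettered A (1087). Leaving out 1 array gave between 0 and 54 genes, between 0 and 9 higher and between 0 and 48 lower.

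Without the replicate block 2 genes passed (0 higher, 2 lower; 676 at an unadjusted p under 0.05), and the difference between GATA1 and vector cells passed in 501. Same-letter arrays of different groups did not all deviate together in letter B. The correlation was -0.11 for GATA1 42 h with vector 18 h, 0.12 for GATA1 18 h with vector 42 h and 0.38 for the 2 vector arrays. Both results use the same block, and the vector count, 41 with it, leans on it more than the difference, 846 with it.

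The 846 differences became 498 without a filter, 147 with second probe sets, 290 without letter A, and between 452 and 1096 without 1 array; vector 18 h B (539), vector 42 h A (559) and GATA1 18 h C (452) moved it by over 1.5 times. None of the 25 named genes that passed changed sign in any alternative run on it, 23 for the 14 with a second tested probe set and 22 for the other 11. Ak1 passed in 17, Trp53inp1 in 16, and Fkbp2 in 4 of 22. Of the largest falls, Matn1 passed in 5 of 22, Cd24a in 8 of 23, Mt2 in 6 of 22 and Cttn in 10 of 23. Matn1 passed in 0 of the 12 runs without 1 array. The p53 list's median stayed between -0.34 and -0.18, that of cholesterol genes between -0.20 and -0.10, that of ribosome biogenesis between 0.056 and 0.15. After quantile normalization 12 p53 targets were lower in all 3 letters. The cause of each shift was not tested. Values near the array median are compressed, which limits what can be seen in dim genes.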
